A study of Mus musculus with 16 samples.

Results

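The epithelial and mesenchymal state markers are 10 genes that are commonly read together to place a cell between an epithelial and a mesenchymal state. They were chosen by their gene name on the array: the epithelial keratins Krt8, Krt18, Krt19 and Krt7, the adhesion proteins Cdh1, Epcam and Cdh2, the intermediate filament gene Vim, the smooth muscle actin gene Acta2 and the repressor Snai2. All 10 of 10 were among the 30214 gene names on the array, and all 10 were among the 19367 genes that passed the filter on dim probes. Of them, 9 were measured well above background on all 16 arrays, and Epcam was not.

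The arrays came from AML12 cells, a non-tumourigenic mouse hepatocyte line, that carried a doxycycline-inducible lentiviral shRNA. One line expressed a scramble shRNA and the other an shRNA against Eif6, the gene of eukaryotic initiation factor 6, which keeps the large ribosomal subunit from joining the small one too early. Both lines were selected with puromycin, and both received doxycycline for 48 h and insulin at 100 nM for 1 h, so no group lacked either agent. Lysates were separated on sucrose gradients into subpolysomal RNA (free ribonucleoproteins, ribosomal subunits and monosomes) and polysomal RNA (mRNA carrying several ribosomes), and each of the 4 groups, scramble subpolysomal, eIF6 shRNA subpolysomal, scramble polysomal and eIF6 shRNA polysomal, held 4 one-colour arrays. The comparison rests on 1 scramble and 1 eIF6 shRNA line, so the effect of the shRNA and any other difference between these lines cannot be told apart. The study describes the arrays of a group as biological replicates, and the p-values measure the spread between them.

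Keratins 8 and 18 pair to form the filament network of hepatocytes, whereas keratins 7 and 19 are typical of bile duct cells and of hepatic progenitors. E-cadherin, the product of Cdh1, and the epithelial adhesion molecule Epcam join epithelial cells, and N-cadherin, the product of Cdh2, is expressed by hepatocytes as well as by mesenchymal cells. Vimentin and smooth muscle actin are the classical filament markers of mesenchymal cells and of activated stellate cells or myofibroblasts. Snai2 belongs to the Snail family of zinc finger repressors, which together with the Zeb and Twist factors drive the epithelial to mesenchymal transition.

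Values are log2 quantile normalized fluorescence per gene, so a fold is taken within a gene and levels of different genes are not compared. Each array was normalized to the same distribution, so differences between the lines are relative to the average mRNA of a fraction. The study reports a smaller polysome area in eIF6 shRNA cells. For selected targets it found that relatively higher mRNAs had similar absolute levels. The number of probes well above background ranged from 20196 to 24960 per array, no spot was saturated, and arrays of 1 group correlated with r between 0.988 and 0.995. Eif6, the targeted gene, was read by 3 probes and was well above background on every array. On polysomes its 4 scramble values lay between 12.94 and 12.96 and its 4 eIF6 shRNA values between 11.81 and 12.00, a difference of -1.05 (SE 0.08, limma adjusted p = 1.46e-07). In the subpolysomal RNA the groups overlapped, at 11.53 to 11.66 in scramble and 11.49 to 11.74 in eIF6 shRNA cells (difference 0.02, adjusted p = 0.915). The lower level of Eif6 was thus measured on polysomes and was not detected in the subpolysomal RNA. Of 18 hepatocyte markers 11 were well above background on all 16 arrays, among them Hnf4a, Ttr and Apob, but not Apoa1, Cps1 or Cyp2e1. So were 30 of 32 mesenchymal surface, contractile and filament genes, so such detection does not single out hepatocytes. Alb, the albumin gene, was well above background on 0 of 4 scramble subpolysomal and 2 of 4 eIF6 shRNA subpolysomal arrays. On polysomes it was so on 3 of 4 scramble and 2 of 4 eIF6 shRNA arrays.

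One array stood apart for the markers. Scramble polysomal replicate 4 held the highest value of its group for 7 of the 10 members and the lowest for the other 3. It also had the lowest mean of the spike-in controls among the 16 arrays (12.12) and the highest 75th percentile before normalization (10.64). Polysomal replicate 4 of the eIF6 shRNA cells deviated in the same direction for several members, and across all genes the deviations of these 2 arrays from their group means correlated with r = 0.41, although they lay on different slides. The polysomal difference of each of the 9 members measured on every array is therefore given with all arrays and without scramble polysomal replicate 4. The second setting was chosen after the data were seen. It keeps eIF6 shRNA polysomal replicate 4, so a deviation that these 2 arrays share stays in the eIF6 shRNA line only. Of all 17 alternatives it gave the largest polysomal differences for Krt8 (0.92) and Krt19 (0.78). Leaving out a whole replicate number gave at most 0.73 and 0.64.

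**Figure D1:**
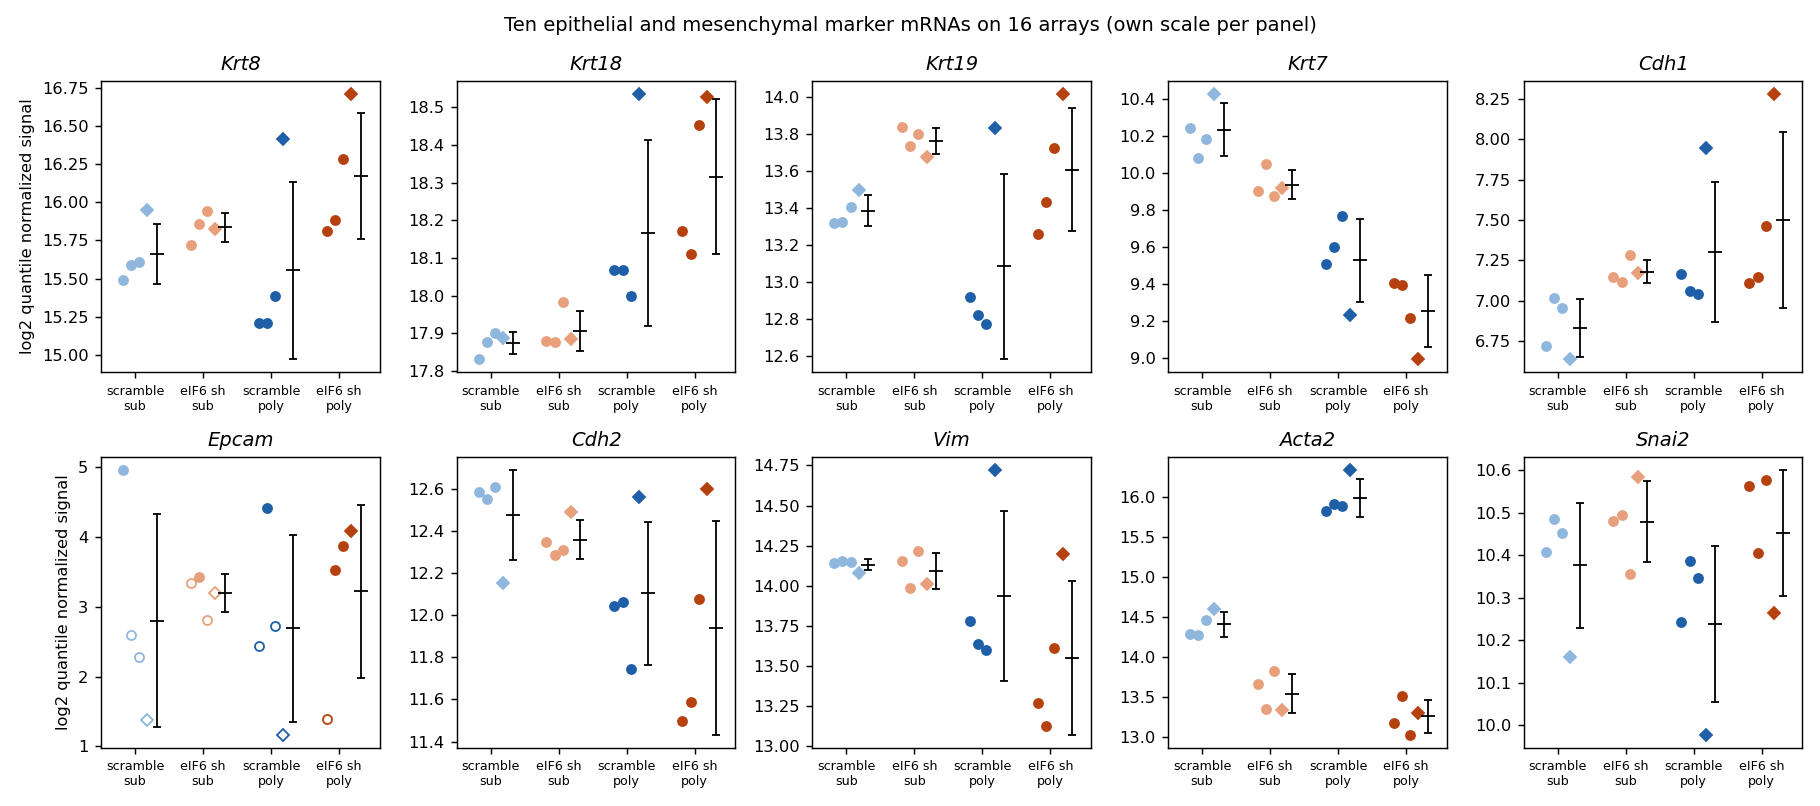
Level of each member on the 16 arrays, as log2 quantile normalized signal on the y axis, with 1 panel and 1 scale per gene and the 4 groups on the x axis (sub, subpolysomal; poly, polysomal). Circles are replicates 1 to 3, diamonds replicate 4, open symbols arrays where the gene was not well above background, and the black bar gives the mean and SD (n = 4). Acta2 separated the lines in both fractions, and scramble polysomal replicate 4 sat above its group for Krt8, Krt18, Krt19, Cdh1, Cdh2 and Vim.

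With all arrays, Acta2 was lower in eIF6 shRNA cells in both fractions. No other member passed the test in the main fit, which used quantile normalized values and no term for slide or replicate number. Of the 10 members, 1 was called lower and 0 higher on polysomes, where 10.7% of all genes were called lower and 11.1% higher (21.8% in either direction) at an adjusted p under 0.05. Below the polysomes again 1 was called lower and 0 higher, against 12.3% and 11.9% of all genes (24.2% in either direction). The translational efficiency change, the polysomal change minus the subpolysomal change, was called for 1 member (lower), against 1.1% of all genes called lower and 0.403% higher. At an unadjusted p under 0.05 the keratins Krt8 and Krt19 (higher) and Krt7 (lower) also passed on polysomes. The share of all genes at that looser threshold was not counted, but it is at least 21.8%, the share called after adjustment. Other settings that keep all 16 arrays called further keratins: 75th percentile scaling called Krt8 (adjusted p = 0.0359) and Krt19 (adjusted p = 0.0487) higher on polysomes and Krt18 (0.31, adjusted p = 0.0256) higher in the subpolysomal RNA, and normexp background correction called Krt7 lower there (adjusted p = 0.0404). Slide as a block also called Krt7 lower in the subpolysomal RNA, and replicate number as a block called Krt8 higher on polysomes. The median difference of the 6 epithelial members was 0.36 on polysomes and 0.26 in the subpolysomal RNA, and that of the 4 mesenchymal members (Cdh2, Vim, Acta2 and Snai2) was -0.27 and -0.08, beside medians of 0.02 and 0.02 over all genes tested. The epithelial medians include Epcam, which was not reliably measured and lay above both. Without Epcam the middle epithelial member was Cdh1 on polysomes (0.20) and Krt8 in the subpolysomal RNA (0.18).

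**Figure D2:**
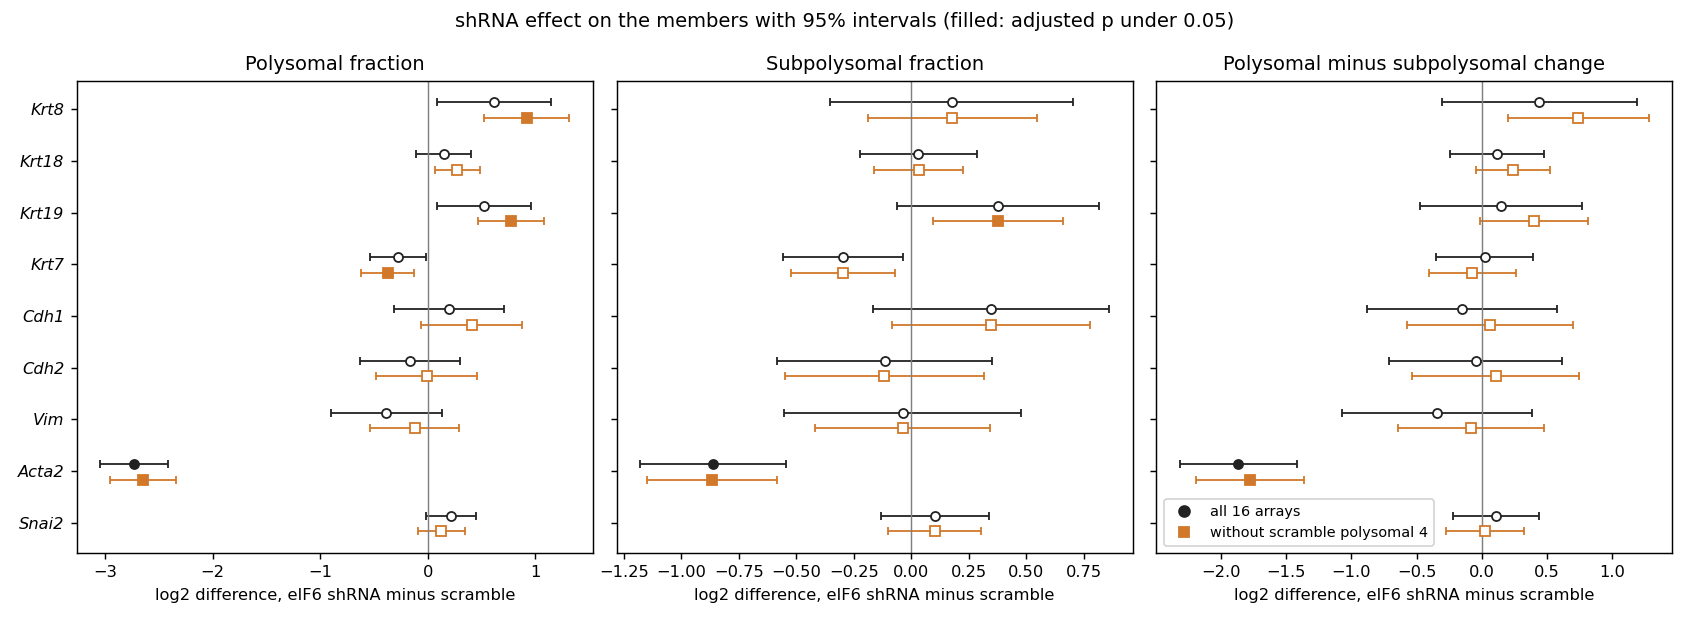
Difference between eIF6 shRNA and scramble cells (x axis, log2, bars are 95% intervals) for the 9 members measured on every array, in the polysomal fraction, in the subpolysomal fraction and as the polysomal minus the subpolysomal change. Black circles use all 16 arrays and orange squares leave out scramble polysomal replicate 4; filled symbols have an adjusted p under 0.05, which Acta2 reached with both sets of arrays and Krt8, Krt19 and Krt7 reached on polysomes without that array.

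The keratins came first. Krt8 is read by 2 probes on mm9 chromosome 15 (minus strand, chr15:101828827-101828886 and chr15:101827138-101827197), and both moved the same way. On polysomes the scramble arrays measured 15.21, 15.21, 15.38 and 16.41 and the eIF6 shRNA arrays 15.81, 15.89, 16.28 and 16.71. Of the scramble values, 3 lay below every eIF6 shRNA value, and replicate 4 lay above 3 of them. The difference was 0.62 (95% interval 0.09 to 1.15, a fold of 1.53, adjusted p = 0.0952) with all arrays and 0.92 (adjusted p = 0.00227) without scramble polysomal replicate 4. Within the 4 slides, each holding 1 array of every group, it ranged from -0.53 to 1.5 and was above 0 on 3. Its subpolysomal values were 15.49, 15.59, 15.61 and 15.95 in scramble and 15.72, 15.86, 15.95 and 15.82 in eIF6 shRNA cells, so the groups overlapped (difference 0.18, adjusted p = 0.663).

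Krt18, the partner of Krt8, was measured by a probe at chr15:101862341-101862400 (mm9, plus strand). Its polysomal values were 18.07, 18.07, 17.999 and 18.53 in scramble and 18.17, 18.11, 18.45 and 18.53 in eIF6 shRNA cells. As for Krt8, replicates 1 to 3 of scramble lay below all eIF6 shRNA arrays and replicate 4 did not. The difference was 0.15 (adjusted p = 0.453) with all arrays and 0.28 (adjusted p = 0.0551) without scramble polysomal replicate 4. Its 8 subpolysomal arrays lay between 17.83 and 17.98, and the difference of 0.03 had a 95% interval of -0.22 to 0.29.

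Krt19, a keratin without a fixed partner that marks bile ducts and progenitors, was read at chr11:100002392-100002451 (mm9, minus strand). It measured 12.92, 12.82, 12.77 and 13.83 on scramble polysomes and 13.26, 13.43, 13.73 and 14.01 on eIF6 shRNA polysomes, with the same array out of place. The polysomal difference was 0.52 (adjusted p = 0.089) with all arrays and 0.78 (adjusted p = 0.00109) without scramble polysomal replicate 4. The subpolysomal groups did not overlap: scramble arrays measured 13.32, 13.32, 13.41 and 13.50 and eIF6 shRNA arrays 13.84, 13.73, 13.80 and 13.68. That difference of 0.38 was above 0 on all 4 slides and had an adjusted p of 0.208 with all arrays and of 0.0457 without scramble polysomal replicate 4, which enters the spread that all groups share. Groups without overlap were not rare, at 31.5% of all genes in the subpolysomal RNA and 22.4% on polysomes, and of the members 4 did not overlap in the subpolysomal RNA (Krt19, Krt7, Cdh1 and Acta2) and 1 on polysomes (Acta2).

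Krt7, another duct keratin, read at chr15:101253718-101253777 (mm9, plus strand), lay the other way. On polysomes it measured 9.51, 9.60, 9.77 and 9.23 in scramble and 9.41, 9.39, 9.22 and 8.99 in eIF6 shRNA cells, so that scramble replicate 4 was low and the groups overlapped. The difference was -0.28 (adjusted p = 0.134) and became -0.37 (adjusted p = 0.0292) without scramble polysomal replicate 4. Below the polysomes the scramble values of 10.24, 10.08, 10.19 and 10.43 all lay above the eIF6 shRNA values of 9.90, 10.05, 9.88 and 9.92. This difference of -0.30 was below 0 on all 4 slides, with an adjusted p of 0.0927, or of 0.0443 with slide as a block. Thus the 4 keratins did not share a direction, and the sign of each polysomal difference was kept without scramble polysomal replicate 4.

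Promoter sequence is shown for Krt8 and Krt18 because Snail repressors are known to act on epithelial genes through the E-box. This motif was searched as CAGGTG, which reads as its reverse complement on the other strand. RefSeq promoters on GRCm38.p6 were at hand for 6 of the 10 members (Krt8, Krt18, Krt7, Epcam, Vim and Acta2). In the 250 bases before the start site, at least 1 such E-box on either strand was found in 4 of the 6 (Krt8, Krt18, Krt7 and Epcam), and in 17.2% of all 32851 promoters in the table. The capitals below mark the E-box of Krt8 (chr15:102004343-102004592, minus strand, from position -111 to -106) and of Krt18 (chr15:102027966-102028215, plus strand, from -214 to -209).
Krt8: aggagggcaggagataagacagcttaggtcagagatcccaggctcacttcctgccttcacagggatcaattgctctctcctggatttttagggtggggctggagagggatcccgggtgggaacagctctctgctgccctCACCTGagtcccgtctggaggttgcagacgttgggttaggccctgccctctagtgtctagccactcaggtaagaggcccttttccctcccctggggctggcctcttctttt
Krt18: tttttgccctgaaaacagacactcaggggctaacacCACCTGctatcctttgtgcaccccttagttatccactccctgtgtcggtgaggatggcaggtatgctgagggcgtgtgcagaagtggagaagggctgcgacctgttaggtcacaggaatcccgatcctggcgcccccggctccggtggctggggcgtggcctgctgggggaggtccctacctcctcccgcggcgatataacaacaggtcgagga
A match is a run of letters in this window and says nothing of binding in these cells.

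The adhesion genes did not pass the test with all arrays. Cdh1, read by 10 spots of a probe at chr8:109193812-109193871 (mm9, plus strand), measured 7.17, 7.06, 7.04 and 7.95 on scramble polysomes and 7.11, 7.15, 7.46 and 8.28 on eIF6 shRNA polysomes. Replicate 4 was the highest array of both groups, and the groups overlapped (difference 0.20, 95% interval -0.32 to 0.71, adjusted p = 0.653; 0.41 and adjusted p = 0.213 without scramble polysomal replicate 4). Among subpolysomal arrays all scramble values (6.72, 7.02, 6.95 and 6.64) lay below all eIF6 shRNA values (7.15, 7.12, 7.28 and 7.17), with a difference of 0.35 (adjusted p = 0.331) that passed when both polysomal replicates 4 were left out (0.34, adjusted p = 0.0203). Cdh2, read by 2 probes, measured 12.04, 12.06, 11.74 and 12.56 on scramble polysomes and 11.50, 11.59, 12.08 and 12.60 on eIF6 shRNA polysomes. Its differences of -0.16 on polysomes (adjusted p = 0.688) and -0.12 in the subpolysomal RNA (adjusted p = 0.756) were smaller than the spread of the arrays, and the polysomal one was -0.01 without scramble polysomal replicate 4. Epcam was not reliably measured: it was well above background on 1 of 4 arrays in each group but the eIF6 shRNA polysomal group, where it was so on 3. Its values ran from 1.17 to 4.42 on scramble polysomes and from 1.39 to 4.09 on eIF6 shRNA polysomes, and no fold is given.

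Vim, whose probe lies at chr2:13504232-13504291 (mm9, plus strand), did not pass the test in either fraction with all arrays. It measured 13.78, 13.64, 13.60 and 14.72 on scramble polysomes and 13.27, 13.12, 13.61 and 14.20 on eIF6 shRNA polysomes. The difference was -0.38 (95% interval -0.90 to 0.13, adjusted p = 0.314) with all arrays and -0.12 (adjusted p = 0.73) without scramble polysomal replicate 4, and it ranged from -1.60 to 0.42 within slides. It passed the test, as lower, when the polysomal replicates 4 of both lines were left out (-0.34, adjusted p = 0.0475). The 4 scramble subpolysomal arrays lay between 14.08 and 14.15 and the 4 eIF6 shRNA ones between 13.99 and 14.22, a difference of -0.04 with a 95% interval of -0.55 to 0.48. Snai2, read at chr16:14709361-14709420 (mm9, plus strand), measured 10.24, 10.39, 10.35 and 9.98 on scramble polysomes and 10.56, 10.41, 10.58 and 10.26 on eIF6 shRNA polysomes. It lay higher in the eIF6 shRNA array on all 4 slides, by 0.21 on average (95% interval -0.02 to 0.45, adjusted p = 0.202), and by 0.13 (adjusted p = 0.437) without scramble polysomal replicate 4. Its subpolysomal difference was 0.10 (adjusted p = 0.55).

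Acta2 was the member that passed the test in both fractions. Its probe, printed in 10 spots per array, lies at chr19:34316060-34316119 (mm9, minus strand) and shares no run of more than 6 bases with the probes of the other actins. On polysomes the scramble arrays measured 15.82, 15.91, 15.88 and 16.33 and the eIF6 shRNA arrays 13.18, 13.51, 13.03 and 13.30. The eIF6 shRNA array lay below the scramble array on every slide, with differences from -2.88 to -2.52, and replicate 4 did not decide the result. The difference was -2.73 (SE 0.15, 95% interval -3.05 to -2.41), a 6.63-fold lower level (adjusted p = 5.84e-09), and -2.65 (adjusted p = 2.07e-08) without scramble polysomal replicate 4. In the subpolysomal RNA the scramble arrays measured 14.28, 14.27, 14.46 and 14.60 and the eIF6 shRNA arrays 13.66, 13.34, 13.83 and 13.33. These groups did not overlap either, and the difference of -0.86 (95% interval -1.18 to -0.54) was a 1.82-fold lower level (adjusted p = 0.000618). Acta2 mRNA therefore fell further on polysomes than below them, by 1.87 on the log2 scale (95% interval of the change -2.32 to -1.42, adjusted p = 0.000312). In bulk RNA, fewer cells of a type and less RNA per cell cannot be told apart.

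The distribution of each mRNA between the fractions was compared within each line, as polysomal minus subpolysomal signal. These ratios are relative to the average mRNA of the array, since each array was normalized to the same distribution, and 60.1% of all genes in scramble and 60.8% in eIF6 shRNA cells differed between the fractions (28.4% lower and 31.7% higher on polysomes in scramble, 28.7% and 32.1% in eIF6 shRNA cells). Acta2 lay 1.58 higher on polysomes in scramble cells (adjusted p = 3.64e-07) and -0.29 in eIF6 shRNA cells (95% interval -0.60 to 0.03, adjusted p = 0.109). Krt7 was lower on polysomes in both lines, with differences of -0.71 in scramble (adjusted p = 0.000149) and -0.69 in eIF6 shRNA cells (adjusted p = 2e-04). Krt18 was higher on polysomes in both, by 0.29 (adjusted p = 0.0453) and 0.41 (adjusted p = 0.00786). The test of the difference between the lines is the translational efficiency change, and it was passed by Acta2 and not by Krt7 (0.02, adjusted p = 0.979) or Krt18 (0.12, adjusted p = 0.847). The other 7 members passed in neither line, and the calls on Krt18 and Krt7 changed with the scaling between fractions.

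Some of the contractile genes that are often read with Acta2 were lower in the same comparison. Of 32 mesenchymal surface, contractile and filament genes, 18 were lower and 2 higher on polysomes, and 19 were lower and 2 higher in the subpolysomal RNA, where the shares of all genes were 10.7% and 11.1% on polysomes and 12.3% and 11.9% below them. Over 17 alternative settings the count of lower genes ran from 14 to 18 on polysomes and from 4 to 21 in the subpolysomal RNA. The median polysomal difference of the list was -0.58, beside 0.02 over all genes. Myl9, the regulatory light chain of smooth muscle and non-muscle myosin, fell from 15.64 ± 0.13 to 12.49 ± 0.16 on polysomes (SD, n = 4; difference -3.16, adjusted p = 6.52e-11) and from 14.20 ± 0.05 to 12.62 ± 0.19 in the subpolysomal RNA. Pdgfrb, a receptor for platelet-derived growth factor, fell from 9.39 ± 0.25 to 6.29 ± 0.33 on polysomes (adjusted p = 3.21e-09). Pdgfra, the other such receptor, was not well above background on any eIF6 shRNA array and was at least 7.10-fold lower on polysomes and at least 4.06-fold lower in the subpolysomal RNA. These bounds set the bright group against the higher of the dim probe's signal and the lowest signal well above background on each array.

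The 5 genes of this list whose translational efficiency change passed the test were Myl9 (-1.59), the actin-binding protein gene Tagln (-1.25), the tropomyosin gene Tpm2 (-1.08), the enteric smooth muscle actin gene Actg2 (-0.96) and the surface glycoprotein gene Thy1 (-0.91). All 5 were lower, with limma adjusted p-values of 9.77e-05, 0.000584, 0.000133, 0.00881 and 0.00392. All but Myl9 were named after their values were seen. Of all genes, 1.1% were called lower and 0.403% higher by this test. Scaling to the spike-in controls left 31 lower and 2 higher among all genes tested. Not every contractile gene fell. On polysomes Tpm4 (-0.64) and Cnn2 (-0.52) passed as lower. Tpm1 (-0.06), Tagln2 (-0.12), Cnn3 (-0.14), Actn1 (0.21) and Cald1 (-0.25) did not pass there. Cald1 was lower in the subpolysomal RNA (-0.49, limma adjusted p = 0.0152). Cnn1, which encodes the smooth muscle protein calponin, rose from 6.43 ± 0.23 to 7.72 ± 0.17 on polysomes (difference 1.29, adjusted p = 0.000136) and by 1.34 in the subpolysomal RNA (adjusted p = 0.000114). Mylk, the kinase that phosphorylates the myosin light chain, rose by 0.53 on polysomes (adjusted p = 0.00186). The cytoskeletal actin genes Actb and Actg1, looked up as relatives of Acta2, differed by -0.03 and 0.25 on polysomes (adjusted p = 0.875 and 0.155).

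**Figure D3:**
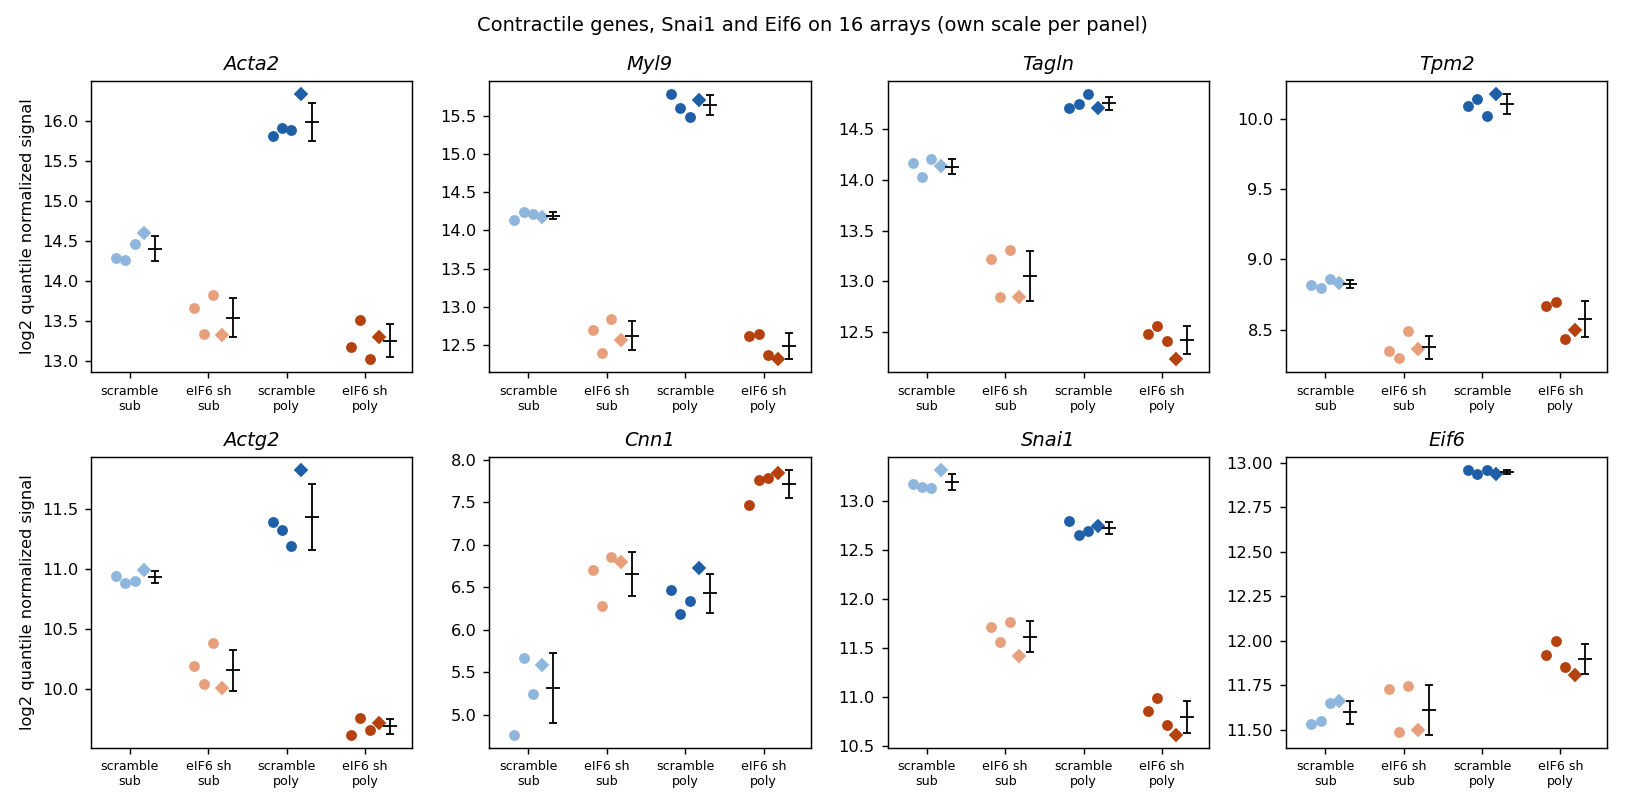
Levels of Acta2, other contractile genes, Snai1 and Eif6 on the 16 arrays, as log2 quantile normalized signal (y axis) in the 4 groups (x axis; sub, subpolysomal; poly, polysomal); circles are replicates 1 to 3, diamonds replicate 4, and bars the mean and SD (n = 4). Acta2, Myl9, Tagln, Tpm2 and Actg2 were highest on scramble polysomes and fell there most, whereas Cnn1 was higher in eIF6 shRNA cells in both fractions and Eif6 fell on polysomes alone.

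The promoters of Acta2, Myl9 and Cnn1 are shown because these 3 contractile genes are known targets of serum response factor, which binds the CArG box, and they did not move together. The CArG box was searched as CC and GG around 6 bases that are each A or T, which reads the same on both strands, and again with exactly 1 of the 6 a G or C. In the 250 bases before the start site, 1.47% of all promoters held the strict box and 7.24% the form with 1 other base. Acta2 (chr19:34255374-34255623, minus strand) held the second form from -84 to -75 and from -34 to -25. Myl9 (chr2:156775214-156775463, plus strand) held the strict box from -161 to -152 and the second form from -99 to -90, and Cnn1 (chr9:22099003-22099252, plus strand) held neither in this window. The matches are in capitals.
Acta2: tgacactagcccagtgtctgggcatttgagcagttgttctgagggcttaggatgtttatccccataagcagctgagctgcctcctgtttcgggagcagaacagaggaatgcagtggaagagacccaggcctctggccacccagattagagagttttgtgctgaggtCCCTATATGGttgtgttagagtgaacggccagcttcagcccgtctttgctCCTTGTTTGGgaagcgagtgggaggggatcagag
Myl9: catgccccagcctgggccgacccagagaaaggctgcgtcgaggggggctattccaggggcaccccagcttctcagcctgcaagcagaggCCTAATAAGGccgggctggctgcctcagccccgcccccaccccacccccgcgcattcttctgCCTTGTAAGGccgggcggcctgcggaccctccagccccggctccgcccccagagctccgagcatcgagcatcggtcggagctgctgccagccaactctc
Cnn1: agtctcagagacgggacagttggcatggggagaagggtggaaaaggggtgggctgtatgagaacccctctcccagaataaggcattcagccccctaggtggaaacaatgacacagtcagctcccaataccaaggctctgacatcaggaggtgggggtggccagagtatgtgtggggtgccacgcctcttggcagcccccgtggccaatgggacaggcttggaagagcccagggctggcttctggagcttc
Promoters were at hand for 30 of the 44 genes in the mesenchymal lists. Of these, 2 held the strict box (Myl9 and Cnn2) and 3 the second form (Myl9, Tbx18 and Itga5). A match says nothing of binding in these cells, and a link between a match and the direction of change was not tested.

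Snai2 and the other transcription factors of the mesenchymal state did not share one pattern. Of 12 such factors 11 were measured. On polysomes 7 were lower and 0 higher in eIF6 shRNA cells, against 10.7% and 11.1% of all genes. The count was 7 and 0 in the subpolysomal RNA as well, against 12.3% and 11.9% of all genes. The list median was -1.67 on polysomes and -1.58 in the subpolysomal RNA. Snai1, the closest relative of Snai2, fell from 12.72 ± 0.06 to 10.79 ± 0.16 on polysomes (difference -1.93, adjusted p = 2.89e-09) and from 13.19 ± 0.08 to 11.61 ± 0.16 below them (difference -1.58, adjusted p = 4.03e-08). Twist1 fell from 6.49 ± 0.30 to 4.25 ± 0.11 on polysomes (difference -2.24, adjusted p = 3.63e-07) and by 2.24 in the subpolysomal RNA. The homeobox genes Prrx1 and Prrx2 fell by 2.06 and 1.69 on polysomes, the T-box gene Tbx18 by 2.03, the forkhead gene Foxc2 by 1.67 and Zeb2 by 0.68. Zeb1, Twist2, Snai3 and Tcf4 did not pass the test, at -0.07, 0.06, -0.09 and -0.65. None of the 11 factors passed the test of the translational efficiency change, where 1.51% of all genes did.

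**Figure D4:**
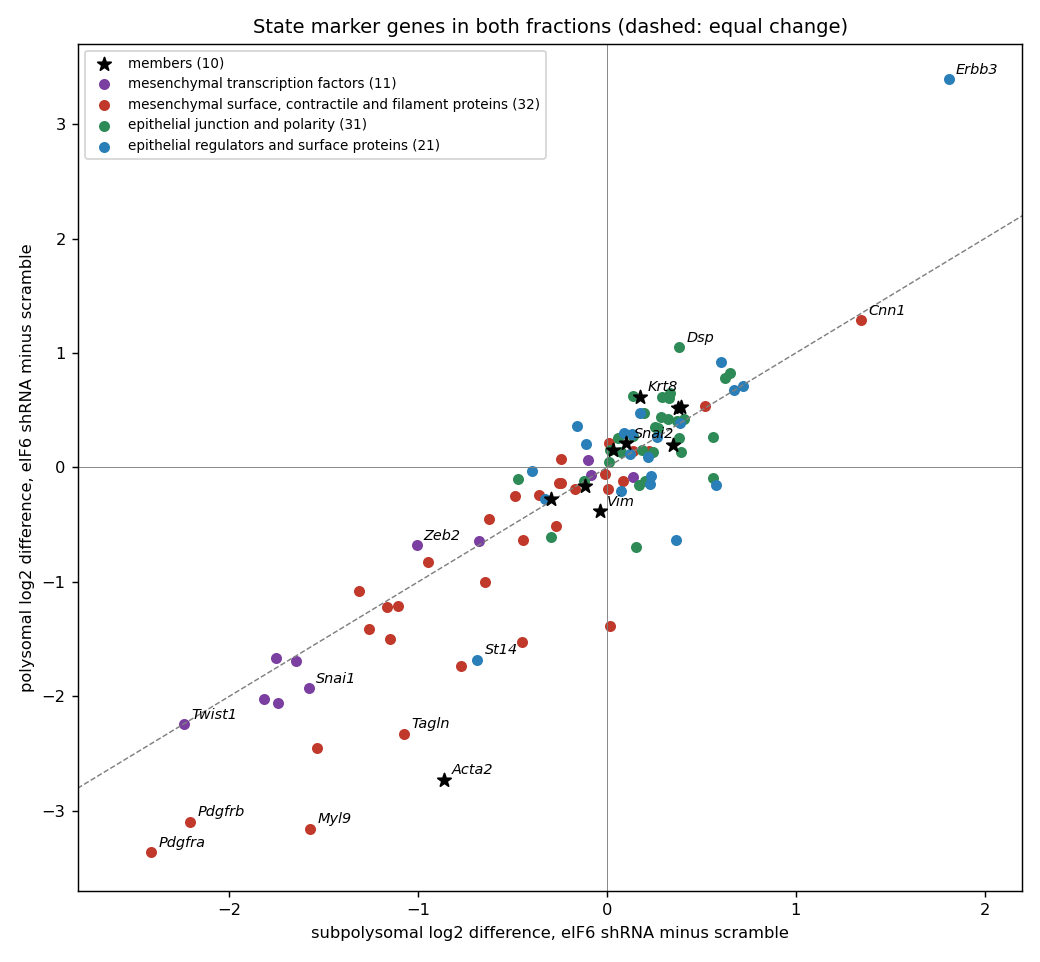
Subpolysomal (x axis) against polysomal (y axis) log2 difference between eIF6 shRNA and scramble cells for the 10 members (stars) and for 4 lists of state marker genes (points; the number measured is in the legend), with a dashed line of equal change in both fractions. The mesenchymal factors lay near the line, Acta2, Myl9 and Tagln below it, and most epithelial genes near the origin; Pdgfra and Erbb3 were not well above background in 1 line, so their positions are not measured folds.

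The genes of epithelial junctions and polarity mostly lay above 0. Of the 36 in the list 31 were measured; 10 were higher and 2 lower on polysomes, and 7 were higher and 0 lower in the subpolysomal RNA, with median differences of 0.27 and 0.25. Of all genes, 11.1% were higher and 10.7% lower on polysomes, and 11.9% and 12.3% in the subpolysomal RNA. The products of the desmosomal genes Dsp, Jup and Dsg2 anchor keratin filaments at the membrane. Relative to the average mRNA, these genes rose by 1.05, 0.82 and 0.78 on polysomes (limma adjusted p = 0.00394, 0.013 and 0.000257). Tjp3 (-0.70) and Lamb3 (-0.61) were lower, and Lamb3 lost its call without scramble polysomal replicate 4 (adjusted p = 0.133). Without scramble polysomal replicate 4 the polysomal counts were 13 higher and 1 lower, without replicate 1 the count of higher genes was 6, and scaling to the spike-in controls, which moved the median of all genes by -0.49 on polysomes and by -0.25 in the subpolysomal RNA, left 0 called higher. Among 26 epithelial regulators and surface proteins, 21 were measured and 6 were higher and 1 lower on polysomes. Erbb3, a receptor of the epidermal growth factor family, was well above background only in eIF6 shRNA cells among the polysomal arrays and was at least 3.48-fold higher there (adjusted p = 1.69e-07). The splicing regulator Esrp2 rose by 0.71 and the Ets factor Ehf by 0.92, whereas St14, which encodes the membrane protease matriptase, fell by 1.68 (adjusted p = 8.98e-07).

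Of 48 other keratin genes 23 were measured, and 4 were lower and 3 higher on polysomes, which at this number of genes is close to the shares of all genes (10.7% lower and 11.1% higher). The lower ones with signal well above background on 4 arrays of a polysomal group were Krt222 (-0.90), Krt79 (-0.76) and Krt20 (-0.54; adjusted p = 0.0969 without scramble polysomal replicate 4), and the higher ones Krt42 (0.59), Krt13 (0.56) and Krt15, which was well above background on 1 of 4 scramble polysomal arrays and on 4 of 4 eIF6 shRNA ones, so that no size is given; the fourth lower keratin, Krt23, was well above background on 3 scramble polysomal arrays alone. Of 21 other cadherins 12 were measured, and the mesenchymal cadherin Cdh11 (-1.50, adjusted p = 1.43e-05) and Cdh26 (-0.47) were lower on polysomes.

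Markers of other cell types were read beside these results, and their part in them was not tested. For each list, the shares of all genes on polysomes were 10.7% lower and 11.1% higher. Of 12 stellate cell and fibroblast markers 8 were measured and 1 (Pdpn) was well above background on all 16 arrays. On polysomes 4 were lower and 2 higher, and the summed level of the list ran from 8.84 to 9.04 in scramble and from 7.78 to 8.05 in eIF6 shRNA cells. The sum adds linear signals of different probes. On polysomes the brightest gene, Pdpn, therefore weighed most (mean 8.01 in scramble and 6.95 in eIF6 shRNA cells). In the subpolysomal RNA the sums overlapped, at 7.16 to 7.64 in scramble and 6.98 to 7.29 in eIF6 shRNA cells. Hhip was at least 3.40-fold lower on polysomes, Dcn lay at -1.77 and Cygb at -1.75, while Ngfr lay at 0.65 and Gfap, well above background on 2 of 4 scramble polysomal arrays, was higher by an amount that was not measured. Lrat, Reln, Lum and Rgs5 did not pass the filter. The mesothelial marker Wt1 was lower (-1.73) and Upk1b and Upk3b were higher. Among 12 endothelial and blood cell markers on the array 7 were measured and Csf1r was lower (-1.67). The hepatocyte markers Afp (1.26), Ttr (1.15), Tat (0.91) and Rbp4 were higher on polysomes and 0 of the 16 measured were lower, although 8 of the 16 differences lay below 0 and the median of the list was -0.10; of the 9 cholangiocyte and progenitor markers measured, 4 were higher, Aqp1 and Ggt1 among them, and 0 lower.

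The patterns of the members over the 16 arrays were compared with those of 14568 genes that were well above background on every array. These correlations share the difference between fractions and the arrays that stood apart, and they are given as a description. Acta2 was most like Ifi27 (r = 0.98), Chi3l1 (r = 0.98) and St14 (r = 0.98). Krt8 was most like Plin2, which coats lipid droplets (r = 0.96), Krt18 like Mfge8 (r = 0.98), Krt19 like Gpi1 (r = 0.98) and Krt7 like Zfp64 (r = 0.99). Cdh1 was most like Hadhb, an enzyme of fatty acid oxidation (r = 0.98), Cdh2 like Smarca5 (r = 0.97), Vim like the condensin gene Ncaph (r = 0.96) and Snai2 like Mfhas1 (r = 0.93). Among the members themselves, Cdh2 and Vim varied together (r = 0.89), as did Krt8 and Krt19 (r = 0.84), and Krt18 and Krt7 varied in opposite directions (r = -0.90).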

How the data were processed

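RNA from pooled subpolysomal and polysomal sucrose gradient fractions was hybridised to 16 one-colour Agilent mouse arrays. Scanner intensities were deposited as written by Feature Extraction (10.7.3.1 in the file headers, 10.7.7.1 in the submitters' processing notes), with probe positions on mm9. The authors also deposited a log2 value table, whose columns all have a median of 4.64 and correlate with r of 0.995 or more with the scanner values; it was used as an alternative.

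Control spots and spots marked as non-uniform or as population outliers were left out, log2 processed signals were averaged per probe, and a probe was kept where at least 2 arrays of any 1 group called it well above background (25262 of 39429). Values were quantile normalized and averaged per gene name. The shRNA and fraction effects were contrasts of 4 group means in limma 3.58.1 (R 4.3.3), with Benjamini-Hochberg adjustment over 19367 genes and a threshold of 0.05; this follows the quantile normalization and limma test of the study. The fit was also run on simulated data with independent noise on each array, which cannot speak to deviations that arrays share. Precision is limited by 4 arrays per group and by signal over background. A gene not well above background on any array of a group is given as a bound, and genes measured on few arrays of a group are named as such.

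The members, gene lists and rules were chosen with earlier results of these data known. The genes named from a list are up to 3 with the largest polysomal decrease and up to 3 with the largest increase among called genes that every array of a polysomal group detected, plus all measured transcription factors, Eif6, and the 3 genes most correlated with each member. Replicate numbers did not pair the arrays (same-number pairs had a median r of -0.01 between deviations from group means, and 3 of 24 pairs were over 0.1), and arrays on the same slide deviated together more (median r 0.13), so slide was tried as a block. Other alternatives were the scaling, the background correction, the filter, the probe, a culture block and leaving out replicates.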

Additional observations from a re-analysis of the deposited data

Results flagged for a closer look

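Of 80 groups of 4 arrays tested for a single array far from the others, 7 had one. The genes tested were the members, Eif6, Myl9, Tagln, Tpm2, Actg2, Thy1, Snai1, Twist1, Pdgfrb and Cnn1. Chance alone gives about 1 in 20 for a single group. The genes share the same arrays, so their groups are not independent and the count cannot be judged by that rate. Of these 7, 5 were scramble polysomal replicate 4, for Krt8 (16.41, others at most 15.38), Krt18 (18.53, others at most 18.07), Krt19 (13.83, others at most 12.92), Cdh1 (7.95, others at most 7.17) and Vim (14.72, others at most 13.78). The other 2 were Krt18 on eIF6 shRNA subpolysomal replicate 3 (17.98, others at most 17.88) and Cdh2 on scramble subpolysomal replicate 4 (12.15, others at least 12.55).

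The shRNA effect differed between polysomal and subpolysomal RNA, by the test of the difference itself in limma, for Acta2 (-1.87, adjusted p = 0.000312) and Eif6 (-1.07, adjusted p = 0.000144). It also differed for Myl9 (-1.59), Tagln (-1.25), Tpm2 (-1.08), Actg2 (-0.96), Thy1 (-0.91) and St14 (-0.99), each more negative on polysomes. The values for Hhip (-1.80) and Erbb3 (1.58) passed as well, but Hhip was well above background on scramble polysomes alone, and Erbb3 on all 4 arrays of the eIF6 shRNA polysomal group and 1 array elsewhere, so these are not measured sizes.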

How the results depend on the processing

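The polysomal fall of Acta2 kept its direction and its call under all 17 alternatives, from -2.84 to -2.31. Its subpolysomal fall and its translational efficiency change kept their calls under all but scaling to the spike-in controls, where they were -1.10 (adjusted p = 0.497) and -1.68 (adjusted p = 1); their ranges were -1.10 to -0.73 and -1.997 to -1.43. That scaling gave 1056 lower and 101 higher genes on polysomes, against 2073 and 2148, and 347 and 43 below them, against 2391 and 2295.

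The other members depended on the setting. On polysomes 2 members were lower and 2 higher (Krt8 and Krt19) without scramble polysomal replicate 4 (Acta2 and Krt7 lower) and without both polysomal replicates 4 (Acta2 and Vim lower); leaving out a replicate number gave 1 to 2 lower and 0 to 2 higher. The 75th percentile scaling called 2 higher, and the replicate block 1 higher (Krt8, adjusted p = 0.0256). In the subpolysomal RNA the members lower were 0 with spike-in scaling and 2 with normexp background correction, slide as a block or without both polysomal replicates 4. The members higher were 1 with 75th percentile scaling (Krt18) and without scramble polysomal replicate 4 (Krt19), 2 without both (Krt19 and Cdh1), and 0 to 1 without a replicate number. The translational efficiency change called 0 members with spike-in scaling.

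The distribution between fractions depended on the scaling. In scramble cells the members lower on polysomes were 3 with 75th percentile scaling, 0 with spike-in scaling or quantile normalization within fractions, which keeps the signal of each fraction, 2 without scramble polysomal replicate 4, 5 without both replicates 4 and 1 to 4 without a replicate number. The members higher were 8 and 9 with spike-in scaling and within-fraction normalization, and 1 with 75th percentile scaling, normexp, no filter, the slide block, the culture block, without scramble polysomal replicate 4, without both, or without any replicate number. In eIF6 shRNA cells the members lower were 0 under spike-in and within-fraction scaling, 2 with 75th percentile scaling, the brightest probe, the slide block, the replicate block or without scramble polysomal replicate 4, 4 without both, and 1 to 5 without a replicate number; the members higher were 0, 7 and 9 with 75th percentile, spike-in and within-fraction scaling.

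Signs turned for differences that had not passed the test; of these, subpolysomal Krt18 passed it with 75th percentile scaling. With spike-in scaling they were Krt18 (-0.22), Cdh1 (-0.28) and Snai2 (-0.24) on polysomes, Snai2 (-0.17) below them, and the efficiency changes of Krt8 (-0.14), Krt18 (-0.25), Krt19 (-0.12), Krt7 (-0.21) and Snai2 (-0.073). With 75th percentile scaling they were subpolysomal Vim (0.046) and the efficiency changes of Krt18 (-0.057) and Krt7 (-0.019), with normexp subpolysomal Krt18 (-0.0016), and with within-fraction normalization the efficiency change of Krt7 (-0.0016). Without a replicate number subpolysomal Vim lay between -0.075 and 0.0042 and subpolysomal Snai2 between -0.0038 and 0.17, and the efficiency changes of Krt7 between -0.057 and 0.11 and of Cdh2 between -0.27 and 0.041; that of Cdh1 kept its sign (-0.23 to -0.04). Without scramble polysomal replicate 4 the efficiency changes of Krt7, Cdh1 and Cdh2 were -0.075, 0.063 and 0.11. The cause was not tested. The replicate block changed no other call of a member between the lines.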
